A study of Mus musculus with 2 samples.

Results

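The genes for 5 annexins (Anxa1, Anxa2, Anxa5, Anxa6 and Anxa7), 4 S100 proteins (S100a4, S100a6, S100a10 and S100a11) and dysferlin (Dysf) were followed in muscle satellite cells before and after injury. They were picked by symbol for their known part in the repair of torn plasma membranes, and all 10 were found among the 32285 genes of the 2 deposited single-cell count matrices. Each matrix was 1 library of cells sorted from tibialis anterior muscle of several pooled 8-week-old mice of the strain Pax7 CreERT2/+ ;Rosa26 mTmG/+, in which the Pax7 gene drives an inducible Cre recombinase that turns on a fluorescent membrane reporter in satellite cells and in whatever grows from them. QSC denotes quiescent satellite cells of uninjured muscle, and ASC denotes activated satellite cells taken at day 1.5 after injury with cardiotoxin (CTX), a snake venom toxin that lyses muscle fibres. Both libraries carried both alleles, so injury and library are the only differences named by the labels. With 1 library per group, no test between conditions was possible, the group and the library cannot be told apart, and every interval given is a 95% interval for counting error alone.

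Annexins are cytosolic proteins that bind negatively charged membrane lipids when calcium is high. Calcium that floods in through a tear brings them to the wound, where they aggregate vesicles and help to form a repair cap. S100 proteins are small calcium-binding dimers that join annexins in pairs. The best known complex holds S100A10 and annexin A2, and S100A11 binds annexin A1 and annexin A2 in a similar way. Dysferlin, a large membrane protein with several C2 domains, brings vesicles to the tear in muscle fibres, and its loss causes a muscular dystrophy. S100A4 and S100A6 are also known for links to cell movement and growth, and annexin A5 is the protein used to stain phosphatidylserine on dying cells.

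In QSC, 516 of 766 barcodes had at least 500 genes and at most 10% mitochondrial UMIs (unique molecular identifiers, 1 per captured transcript), and in ASC 1468 of 1650 did. The kept barcodes held 1162091 UMIs in QSC and 8895815 in ASC, with medians of 2155 and 3502 UMIs per barcode. A total of 4 barcode sequences occurred in both libraries, 2 of them among kept barcodes. The labelled cell type, muscle stem cells, held for a part of the barcodes only. Barcodes with at least 5% of UMIs from 10 sarcomere and fibre genes, here called contractile-high, made up 104 of 516 in QSC and 927 of 1468 in ASC. They had a median of 13.8% and 11.7% of UMIs from those genes. CPM denotes the UMIs of a gene in every 1000000 UMIs of a class. Of 11 quiescent satellite cell markers, 5 were detected in them in QSC, at a summed level of 121 CPM. In ASC all 11 were detected in them, at a summed level of 42.8 CPM. The other muscle barcodes, called contractile-low, numbered 370 in QSC and 430 in ASC. The same markers, Pax7 among them, summed to 5635 CPM in contractile-low QSC and to 1048 CPM in contractile-low ASC. Markers of activated cells summed to 1420 and 3172 CPM in contractile-low cells. In contractile-high barcodes they summed to more, 2597 and 4938 CPM, so that list did not separate the classes. Small clusters with macrophage, neutrophil and fibroblast markers completed the libraries. No barcode of QSC and 31 of ASC lay within 1 percentage point of the 5% limit. Since most of contractile-low QSC came from 1 cluster (cluster 2, 236 cells) and most of contractile-low ASC from others (cluster 1, 241 cells, and cluster 3, 105 cells), the class compares different states as well as different libraries.

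Over all kept barcodes, the 4 S100 genes were all higher in ASC, and the annexins were split. S100a4 was at 78.3 CPM in QSC and 291 CPM in ASC, a log2 ratio of 1.89 (1.59 to 2.21). It was the 1 member of 10 that was called higher, a call being a difference of at least 2-fold with an interval that leaves out 0. Among all 11189 genes with at least 20 UMIs, 12.9% were called higher in ASC and 21.3% lower, so that 1 of 10 was near the background share. S100a6, the most abundant member, was at 785 and 1164 CPM (log2 ratio 0.57, 0.47 to 0.67). S100a10 was at 479 and 623 CPM, and S100a11 at 228 and 316 CPM, with log2 ratios of 0.38 and 0.47. Their intervals lay above 0 but under 2-fold.

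Anxa2 was at 241 CPM in QSC and 480 CPM in ASC, a log2 ratio of 0.99 (0.82 to 1.17) just under the limit. Anxa7, whose product was first described as a membrane fusion protein of secretory cells, was at 41.3 and 71.8 CPM (log2 ratio 0.80, 0.37 to 1.25). The others were lower in ASC or not distinct. Anxa5 was at 359 and 225 CPM (log2 ratio -0.68, -0.83 to -0.52) and Anxa6, an annexin with a doubled core that forms the repair cap in muscle, at 244 and 193 CPM (log2 ratio -0.34, -0.52 to -0.15). Anxa1 was at 97.2 and 84.0 CPM, with an interval that held 0. Dysf had 4 UMIs in QSC and 42 in ASC, too few for a direction (log2 ratio 0.46, -1.01 to 2.40). The median gene with at least 20 UMIs in each library stood at -0.24, so that relative to it Anxa5 was at -0.44, Anxa6 at -0.10 and Anxa1 at 0.03. Scaling by TMM added 0.31 to every log2 ratio, which turned the sign of Anxa1 and left Anxa6 at -0.03.

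The count of members called was different at a stricter mitochondrial limit. With the limit of 1% that the study used, 7 members were called higher, none lower, and Anxa5 and Anxa6 turned to 2.01 and 0.94. The share of all genes called at that limit was not computed, so the count of 7 has no background beside it. Of the 86 QSC barcodes that pass that limit, 85 were contractile-high. For this reason the members were described by class of barcode.

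**Figure D1:**
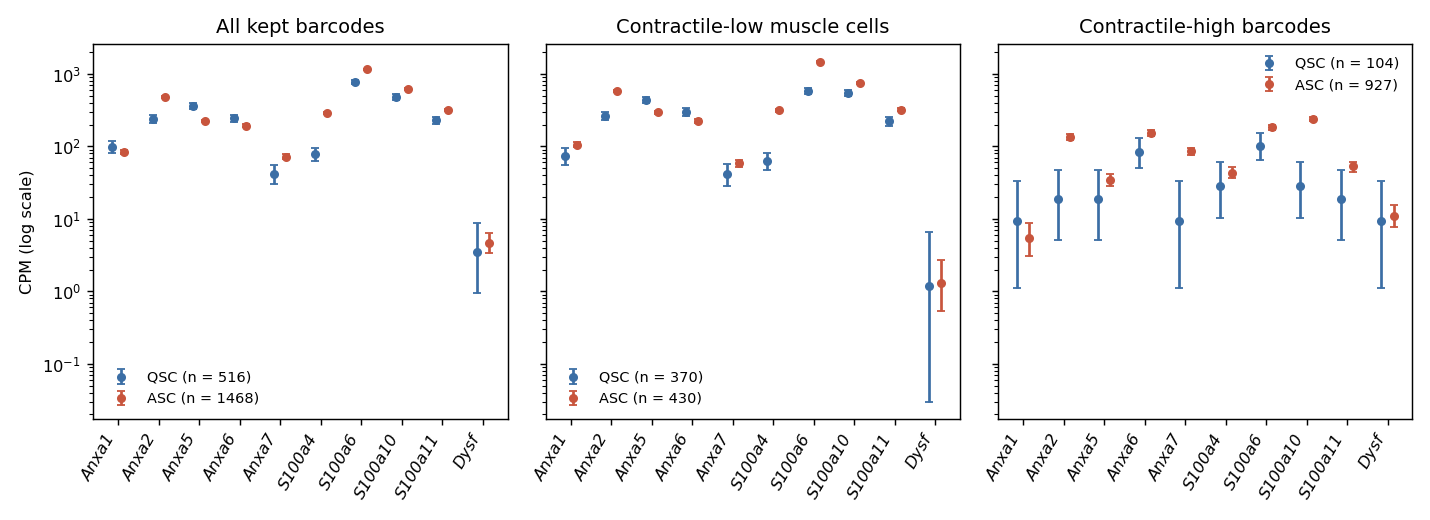
Level of the 10 genes in CPM (log axis) in QSC (blue) and ASC (red), over all kept barcodes, contractile-low muscle cells and contractile-high barcodes. Bars are exact Poisson 95% intervals of 1 library each, and n is the number of barcodes. In contractile-low cells S100a6 stood at 586 and 1473 CPM, and in contractile-high barcodes at 103 and 183 CPM.

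In the contractile-low muscle cells, S100a4, S100a6 and Anxa2 were called higher in ASC, and Anxa5 and Anxa6 were lower by less than 2-fold. These 3 were of 9 members with at least 20 UMIs, against 15.4% of the 9992 genes tested in that class; no member was called lower, against 20.7%. S100a4 had 53 UMIs in the 370 QSC cells, or 62.6 CPM (46.9 to 81.9), and 1690 UMIs in the 430 ASC cells, or 317 CPM (302 to 332). The log2 ratio was 2.34 (1.94 to 2.76), a 5.06-fold difference. S100a6 was at 586 CPM (535 to 640) in QSC and 1473 CPM (1441 to 1506) in ASC, a log2 ratio of 1.33 (1.20 to 1.46). Anxa2 was at 262 CPM (229 to 299) and 585 CPM (564 to 606), a log2 ratio of 1.16 (0.96 to 1.36). For each of these genes the counting intervals of the libraries did not overlap. The genes were named for their call on the same counts, so this adds no support.

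The remaining S100 genes and Anxa1 and Anxa7 were higher in ASC within 2-fold. S100a10, the partner of annexin A2, was at 541 and 748 CPM (log2 ratio 0.47, 0.33 to 0.61) and S100a11 at 221 and 321 CPM (0.54, 0.32 to 0.76). Anxa1, a mediator known for damping inflammation, was at 73.2 and 106 CPM (0.53, 0.15 to 0.93). Anxa7 was at 41.3 and 59.0 CPM, with an interval that began at 0.01. In the other direction, Anxa5 was at 436 CPM in QSC and 297 CPM in ASC (log2 ratio -0.56, -0.72 to -0.39) and Anxa6 at 302 and 225 CPM (-0.43, -0.62 to -0.23). Both signs turned when QSC cells of cluster 2 were set against ASC cells of cluster 1, with 0.12 (-0.08 to 0.32) for Anxa5 and 0.34 (0.09 to 0.60) for Anxa6. Dysf had 1 UMI in QSC and 7 in ASC. In all, 7 of 9 intervals lay above 0 and 2 below. The share of all genes with an interval off 0 was not computed, so nothing is drawn from this count. The order of the members differed accordingly: in QSC S100a6 and S100a10 had overlapping intervals at the top and Anxa5 followed, whereas in ASC S100a6 stood alone, S100a10 and Anxa2 came next, and S100a11, S100a4 and Anxa5 lay close together.

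Contractile-low cells had a median of 8136.5 UMIs in ASC and 2221.5 in QSC. Among cells with 2000 to 6000 UMIs, 240 in QSC and 145 in ASC, the log2 ratio was 1.82 (1.28 to 2.40) for S100a4, 0.74 (0.55 to 0.94) for S100a6 and 0.42 (0.12 to 0.73) for Anxa2, and S100a10 was at 0.02 (-0.20 to 0.24). Of the 3 called genes, S100a4 stayed past 2-fold and S100a6 and Anxa2 did not, while Anxa7 was called with 1.19 and Anxa1 turned to -0.66. This range of depth also changed the clusters compared, since it held 113 of the 241 ASC cells of cluster 1 but 7 of the 105 of cluster 3, and the parts of depth and cluster cannot be told apart. With each cell thinned to 1200 UMIs, S100a4 was found in 6.01% (3.80 to 8.96) of 366 QSC cells and in 22.5% (18.6 to 26.7) of 423 ASC cells. S100a6 was found in 41.8% and 59.6% of those cells, Anxa2 in 27.9% and 37.6%, and Anxa5 in 37.4% and 28.8%. The intervals overlapped for Anxa5 (32.5 to 42.6 and 24.6 to 33.4), for S100a10, at 42.9% and 46.8%, and for Anxa1, at 6.28% and 8.75%. They also overlapped for Anxa6 and Anxa7. Without thinning the share for S100a4 was 10.5% in QSC and 53.0% in ASC. No class of these libraries is known to lack these genes, so a share that free RNA alone would give was not measured. As a gauge, Acta1, the skeletal actin gene, was found in 99.7% and 99.5% of thinned contractile-low cells, and at 5208 and 5082 CPM.

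Markers of other cell types were counted in the same cells. The 14 macrophage and monocyte markers summed to 80.3 CPM in QSC (8 detected) and 166 CPM in ASC (14 detected), against 25329 CPM in the macrophage-like cells of ASC. Lyz2 was at 23.6 and 59.2 CPM, against 10928 CPM in those cells. The 7 fibroblast markers went the other way, with 989 and 488 CPM. The 6 mural cell markers summed to 438 CPM in QSC and 1236 CPM in ASC. Of these, Acta2, the smooth muscle actin gene, was at 255 and 1208 CPM, while Rgs5 was at 37.8 and 5.81 CPM and Notch3 at 131 and 17.6 CPM. The 5 tenocyte markers summed to 8.27 and 48.9 CPM, with Scx at 3.54 and 42.4 CPM. The neutrophil markers summed to 113 and 63.0 CPM and the endothelial ones to 24.8 and 8.81 CPM. The 6 erythroid markers summed to 131 and 1668 CPM, and when cluster 4, led by the haemoglobin gene Hbb-bs, was left out, the log2 ratios of S100a4, S100a6 and Anxa2 were 2.35, 1.33 and 1.15. Their part in the results was otherwise not tested.

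**Figure D2:**
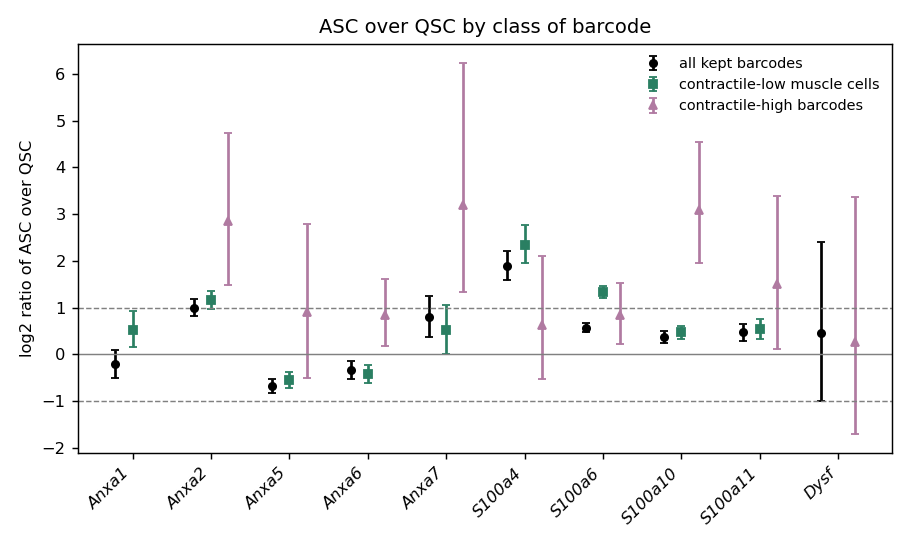
log2 ratio of ASC over QSC for each gene with at least 20 UMIs, over all kept barcodes (circles), contractile-low muscle cells (squares) and contractile-high barcodes (triangles). Bars are exact 95% intervals for counting error, and dashed lines mark 2-fold. S100a4 was highest in contractile-low cells at 2.34, and Anxa5 and Anxa6 were below 0 in contractile-low cells at -0.56 and -0.43.

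The promoters of the 3 genes called higher in contractile-low ASC cells are shown, with their place on the genome. S100a4 lies on chromosome 3 at 90603771-90606045 and S100a6 at 90612882-90624181, with 6836 bases between them, both on the plus strand. S100a11 (93520488-93526287) and S100a10 (93555080-93564643) lie on the same chromosome, 28792 bases apart. Anxa2 lies on chromosome 9 at 69453620-69491795, also on the plus strand. The other members lie on other chromosomes or far off: Anxa5 on chromosome 3 at 36448923-36475894, Anxa1 on chromosome 19 at 20373428-20390944, Anxa6 on chromosome 11 at 54979108-55033445, Anxa7 on chromosome 14 at 20455260-20480133, all on the minus strand, and Dysf on chromosome 6 at 84008590-84211060 on the plus strand. All 10 are protein-coding genes, and these positions are from GENCODE M21 on GRCm38. The 250 bases before the RefSeq start, on GRCm38.p6 and on the plus strand, are chr3:90603520-90603769 for S100a4, chr3:90612644-90612893 for S100a6 and chr9:69453433-69453682 for Anxa2. Capitals mark matches to TGANTCA (the AP-1 motif), CANNTG (the E-box, bound by MyoD and other basic helix-loop-helix factors) and TATAAA, searched on both strands.
S100a4: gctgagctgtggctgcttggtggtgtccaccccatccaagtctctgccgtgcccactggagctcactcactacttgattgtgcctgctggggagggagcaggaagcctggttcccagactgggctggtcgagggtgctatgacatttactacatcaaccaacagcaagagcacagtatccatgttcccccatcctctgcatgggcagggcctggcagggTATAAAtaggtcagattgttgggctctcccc
S100a6: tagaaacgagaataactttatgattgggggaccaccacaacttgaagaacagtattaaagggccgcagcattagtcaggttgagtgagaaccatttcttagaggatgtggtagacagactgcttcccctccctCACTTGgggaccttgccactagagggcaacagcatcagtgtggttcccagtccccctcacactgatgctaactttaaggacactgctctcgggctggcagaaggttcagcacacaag
Anxa2: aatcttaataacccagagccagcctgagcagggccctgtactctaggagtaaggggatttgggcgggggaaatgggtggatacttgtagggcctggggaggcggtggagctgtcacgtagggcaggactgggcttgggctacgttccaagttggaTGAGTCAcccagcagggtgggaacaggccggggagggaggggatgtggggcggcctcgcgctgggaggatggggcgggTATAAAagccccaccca

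Anxa2 had 1 AP-1 match, S100a6 had 1 E-box, and S100a4 and Anxa2 had 1 TATAAA each, 31 and 17 bases before the start. Of 32851 mouse promoters cut to the same 250 bases, 6.75% held an AP-1 match, 66.2% an E-box and 12.4% TATAAA. Of the 8 members with a promoter in the table, 2 held an AP-1 match (Anxa2 and S100a11), 4 an E-box and 3 TATAAA. No capitals in these windows overlapped.

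Within ASC, the members differed between clusters of mostly contractile-low cells, with levels summed over all cells of a cluster. Cluster 1, led by Bgn and C1qtnf3, had the highest Anxa2 (695 CPM), Anxa5 (501 CPM), Anxa6 (363 CPM) and S100a4 (425 CPM) of clusters 1, 3 and 9. Cluster 3, led by genes of DNA replication and division such as Rrm2 and Pclaf, had more S100a6 (1685 against 1329 CPM) and less Anxa5 (182 CPM), Anxa6 (147 CPM) and S100a4 (261 CPM). Cluster 9, led by Cdkn1c, Mymk and Myog, was low in most members: S100a6 was at 461 CPM, Anxa2 at 133 CPM, S100a10 at 217 CPM and S100a4 at 113 CPM. Myog, a transcription factor of the differentiating myoblast, was at 6583 CPM there, against 447 CPM in cluster 1. Annexin and S100 genes were kept out of the clustering, but the clusters were made from the same cells, so these are descriptions. The 219 ASC cells with at least 1 Myog UMI and the 58 with Pax7 but no Myog had Anxa2 at 564 and 562 CPM and S100a4 at 334 and 301 CPM, with overlapping intervals, as for Anxa5, Anxa7 and S100a10. The first had more Anxa1 (108 against 70.6 CPM) and less Anxa6 (211 against 279 CPM), S100a11 (289 against 410 CPM) and S100a6 (1415 against 1554 CPM). These sets of cells also differed in depth, with medians of 12798 and 6319 UMIs per cell. When the cells were thinned to equal depth, the intervals of the shares with Anxa1, Anxa6, S100a11 and S100a6 overlapped. Anxa1 kept its order, at 8.76% and 3.45%. Anxa6, S100a6 and S100a11 (29.0% and 22.4%) were then found in more of the first. The part of depth in these differences was not tested.

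**Figure D3:**
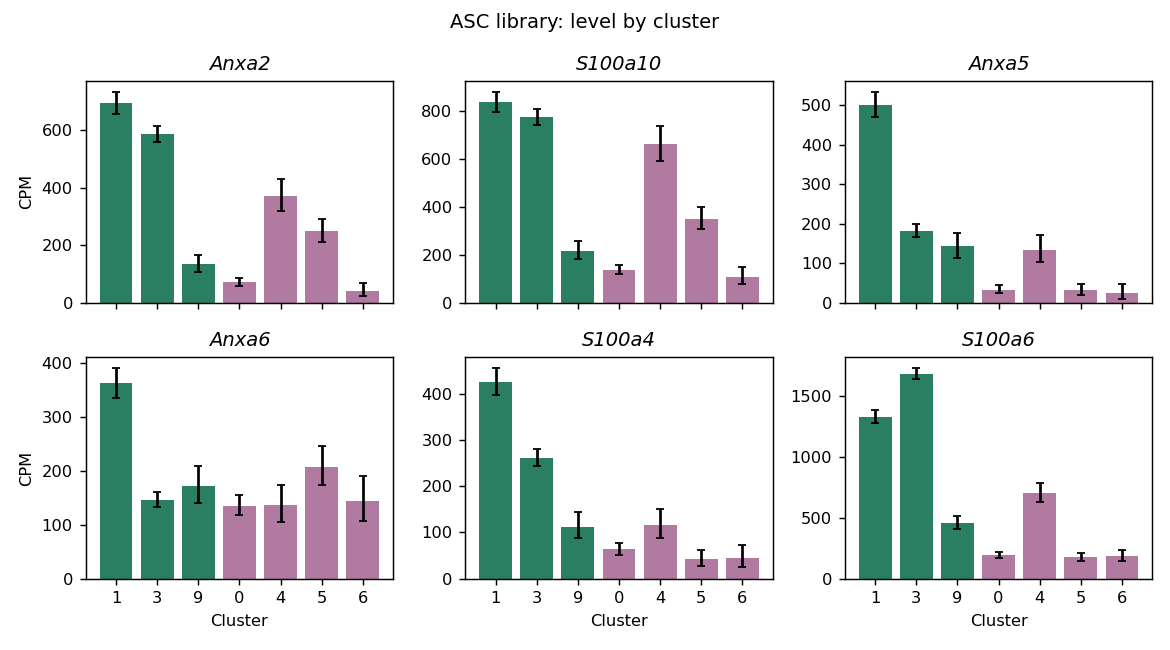
Level of 6 genes in CPM (bars from 0) in 7 clusters of ASC, with exact Poisson 95% intervals. Green bars are clusters of mostly contractile-low cells and purple bars are clusters of mostly contractile-high barcodes. Cluster 9, with high Myog, had Anxa2 at 133 CPM, and cluster 1 had it at 695 CPM.

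In contractile-high barcodes, Anxa2, Anxa7, S100a10 and S100a11 were called higher in ASC, and all members but Anxa7 in ASC and Dysf were at lower levels than in contractile-low cells of the same library. The 4 S100 genes summed to 177 CPM in QSC and 518 CPM in ASC. Called genes made up 8.61% (higher) and 5.65% (lower) of 6317 genes. The 4 called members had 2 to 6 UMIs in QSC and reached the minimum of 20 UMIs through ASC, so that their count supports nothing. S100a10 had 6 UMIs in QSC and 708 in ASC, or 28.0 and 239 CPM (log2 ratio 3.09, 1.96 to 4.54). Anxa2 had 4 and 402 UMIs, or 18.6 and 136 CPM (2.86, 1.49 to 4.74). Anxa7 had 2 and 253 UMIs (3.19, 1.33 to 6.25), and S100a11 had 4 and 157 (1.50, 0.12 to 3.40). Anxa5, S100a4 and Dysf had intervals that held 0, and Anxa1 had 2 and 16 UMIs. Anxa6 was at 83.9 and 151 CPM (0.85, 0.17 to 1.62). S100a4, the gene with the largest log2 ratio in contractile-low cells, was at 28.0 and 43.5 CPM here, with an interval that held 0.

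Within the ASC clusters of mostly contractile-high barcodes, Anxa2 and S100a10 varied together, with levels summed over all cells of a cluster. These sums include contractile-low cells, 18 of 195 in cluster 4 and 12 of 113 in cluster 6. The part of those cells in the levels was not computed. Cluster 5, led by the stretch-response genes Ankrd1 and Csrp3, had Anxa2 at 249 CPM and S100a10 at 351 CPM. Cluster 4 had them at 371 and 662 CPM, while cluster 0, with Myh4 and Pvalb among its leading genes, had 72.0 and 137 CPM and cluster 6, led by slow-fibre genes, 41.2 and 109 CPM. Without cluster 4, 3 members in place of 4 were called. In contractile-high barcodes the macrophage markers summed to 93.2 CPM in QSC and 342 CPM in ASC, the mural ones to 23.3 and 59.7 CPM, the tenocyte ones to 37.3 and 110 CPM and the fibroblast ones to 88.6 and 14.8 CPM, and their part in the result was not tested.

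Dysf was found mostly in contractile-high barcodes. Of its 42 ASC UMIs, 33 were in contractile-high barcodes, at 11.1 CPM against 1.31 CPM in contractile-low cells, and 2 of its 4 QSC UMIs were. In thinned contractile-low cells it was found in 0 of 366 QSC cells, which by the limit of 3 counts allows a share of up to 0.820% of cells with a UMI (Clopper-Pearson upper bound 1.003%).

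Cells other than muscle held much of some members. The 88 macrophage-like cells of ASC, with 6.14% of the library's UMIs, had S100a6 at 3327 CPM, S100a11 at 1527 CPM, S100a10 at 1501 CPM, S100a4 at 1397 CPM and Anxa2 at 1322 CPM, and they held 29.5% of the S100a4 UMIs and 29.7% of the S100a11 UMIs. The 25 QSC cells of the same cluster had S100a4 at 366 CPM and S100a6 at 1190 CPM, but endothelial markers summed to 3227 CPM in them, so no ratio was formed. The 22 neutrophil-like cells of ASC had S100a11 at 2624 CPM, above each other class described. In QSC, 17 fibroblast-like cells with 4.93% of UMIs held 37.5% of the S100a6 UMIs, at 5970 CPM, and 35.4% of the Anxa1 UMIs, at 698 CPM. When the non-muscle clusters were left out, the log2 ratio of S100a6 over all barcodes went from 0.57 to 1.05 and that of Anxa1 from -0.21 to 0.21, while S100a4 stood at 1.96.

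**Figure D4:**
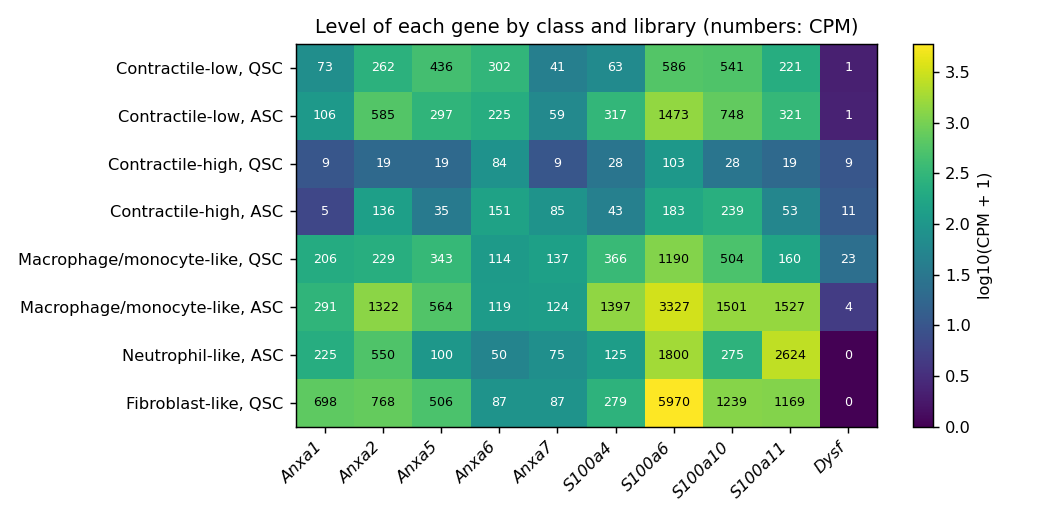
Level of each gene by class and library, with colour as log10 of CPM plus 1 and the number in each field as CPM. Macrophage-like ASC cells had S100a4 at 1397 CPM, and fibroblast-like QSC cells had S100a6 at 5970 CPM.

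Other genes of membrane repair were followed in 5 lists of 56 genes. Over all kept barcodes, 41 had at least 20 UMIs, of which 11 were called higher in ASC and 5 lower. Among those called higher, Trim72, Myof, S100a8 and S100a9 had 1, 2, 9 and 11 UMIs in QSC. They reached the minimum of 20 UMIs through ASC, so the count of 11 supports nothing. The shares over all genes were 12.9% and 21.3%, as above. The median log2 ratio of the 41, which needed 20 UMIs in the 2 libraries together, was 0.12. That of all genes with at least 20 UMIs in each library was -0.24. These filters differ, so the 2 medians cannot be compared. Lgals1 and Lgals3, the galectins that bind sugars exposed on damaged membranes, were at 1081 and 5518 CPM and at 23.2 and 371 CPM (log2 ratio of Lgals1 2.35). Both were called higher in contractile-low cells and in contractile-high barcodes too. Lgals3, however, had 10 and 879 UMIs in contractile-low cells and 1 and 470 in contractile-high barcodes. It reached the minimum of 20 UMIs through ASC in both classes, so its calls there support nothing. Of the muscle genes among them, Cav3 was at 30.1 and 139 CPM, Cavin4 at 31.8 and 137 CPM and Bin1, known for its part in T-tubules, at 194 and 680 CPM. Over all kept barcodes the other caveola genes of the lists went the other way. Cav1 had a log2 ratio of -0.69, Cavin1 of -0.41, Cavin3 of -0.53 and Cavin2 of -1.36, the last of them called lower. In contractile-low cells Cavin1 was at 0.03 (-0.29 to 0.35) and Cavin3 at -0.01 (-0.30 to 0.29), with Cav1 at -0.43 and Cavin2 at -0.89. In contractile-high barcodes Cavin1 had 0 UMIs in QSC and 130 in ASC, Cav1 0 and 23, Cavin3 2 and 49, and Cavin2 2 and 6. Of the Ehd family, which shapes membranes, Ehd1 and Ehd4 were higher over all kept barcodes (log2 ratios 1.29 and 1.91). Ehd2 and Ehd3 were lower there (-1.45 and -2.21, the second on 23 and 38 UMIs). Ano5, a gene of another membrane-repair dystrophy, was lower (25 and 55 UMIs, -1.80). Trim72, which encodes the muscle repair protein MG53, had 1 UMI in QSC and 102 in ASC, 95 of them in contractile-high barcodes (log2 ratio there 2.78, 0.27 to 8.10). Myof, the ferlin of fusing myoblasts, had 2 and 120 UMIs (2.97, 1.09 to 6.03), 104 of the ASC ones in contractile-low cells. Anxa3 was called lower over all kept barcodes (-1.52). In contractile-low cells it was at -0.71 (-1.17 to -0.24) and not called. S100a8 and S100a9, the calprotectin genes of neutrophils, were at 7.74 and 100 CPM and at 9.47 and 76.9 CPM, and in contractile-low cells at 7.09 and 14.2 CPM and at 10.6 and 12.7 CPM.

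Across 14 sums of cells by library and cluster, each of at least 20 cells, the genes most like the S100 sum were Arpc1b (Pearson r 0.964), Cfl1, Actb and Arhgdia, all of the actin cytoskeleton, and Anxa2 (0.948), out of 5751 genes. The annexin sum was closest to S100a10 (0.952), Ifitm3, Calr, Myl6 and Phlda1. Anxa2 and S100a10 themselves had r 0.926. These sums share libraries, depth and cell types, so the values describe the pattern only. Within contractile-low ASC cells thinned to 1200 UMIs, S100a10 was found in 58.5% of cells with Anxa2 and 39.8% of the rest, and within QSC in 46.1% and 41.7%.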

How the data were processed

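Cells were sorted by the reporter of Pax7 CreERT2/+ ;Rosa26 mTmG/+ mice and captured with the 3' v2 chemistry of 10x Genomics. The submitters' processing notes name Cell Ranger 7.1.0, Seurat 4.1.0, R 4.1.2 and build mm10, whereas the matrix header gives 6.0.2. The annotation and the handling of introns and strand are not given in the sources used here. The deposited files hold counts of UMIs per gene and barcode, not normalized by the authors.

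From these counts, barcodes with at least 500 genes and at most 10% mitochondrial UMIs were kept and the UMIs of each gene were summed per library and class and scaled to CPM. Doublets were not removed. Ratios got exact conditional binomial intervals, levels exact Poisson intervals and shares Clopper-Pearson intervals, all at 95% and for counting error only, and a count of 0 was also read against a limit of 3 counts. With 1 library per group no p-value was computed, and a gene was called past 2-fold with an interval off 0, given at least 20 UMIs. Clusters came from Seurat 5.3.0 in R 4.3.3 with 10 principal components and resolution 0.6, without the annexin and S100 genes (7 of 1084 variable genes). A cluster was named for the list of which at least 50% of the markers, and at least 3, were in 10% of its cells and 2-fold above the rest; this naming rule was set after the data were seen. Named genes were the members, the genes of the 5 lists past 2-fold with at least 50 CPM in the higher library, and the 5 most alike genes per sum, and Ano5, Ehd3, Cav1, Cavin1, Cavin3, Trim72 and Myof were added after their values were seen. The members and lists were chosen with earlier results of these data known. Scripts were tested on simulated data, and tables used Python 3.11.15. Exons of S100a4 overlap a same-strand gene absent from the matrix, exons of Anxa2 and Dysf overlap antisense genes, and S100a11 has 2 pseudogenes at least 95% identical over at least 100 bases, so their counts are uncertain to that extent.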

Additional observations from a re-analysis of the deposited data

Results flagged for a closer look

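Anxa5 and Anxa6 had opposite signs in the classes of muscle barcodes. The log2 ratio of ASC over QSC was -0.56 in contractile-low cells and 0.90 (-0.50 to 2.80) in contractile-high barcodes for Anxa5, and -0.43 and 0.85 (0.17 to 1.62) for Anxa6. The difference between the classes was not tested, since each class had 1 library per group, and the contractile-high values rest on 4 and 18 QSC UMIs. Between QSC cells of cluster 2 and ASC cells of cluster 1 both genes were above 0, at 0.12 and 0.34.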

How the results depend on the processing

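No paired analysis was possible because each group had 1 library. Alternatives in clusters, depth and cluster 4 were chosen after the data were seen. Over all kept barcodes, 1 member was called. The count was 7 with at most 1% mitochondrial UMIs, 3 with TMM or median-of-ratios scaling, and 2 with no gene minimum, with the mean of CPM per cell (by size alone), when thinned to 1200 UMIs (in these last 2 alternatives Anxa5 was called lower, at -1.07 and -1.04), without non-muscle clusters, without contractile-high barcodes or without cluster 4. The other limits on barcodes and the sum without fibre and mitochondrial genes left it at 1. In contractile-low cells the count was 3 and stayed at 2 or 3 in all 13 alternatives. In contractile-high barcodes it was 4, and 7 with the mean of CPM per cell or with the limit at 3% of fibre UMIs. The share of all genes called over all kept barcodes was 34.2%, and 31.3% and 32.6% with at least 5 or 100 UMIs. For the other alternatives it was not computed, so their counts have no background. S100a4 was above 0 in every alternative tried, from 1.37 to 2.22 over all kept barcodes and from 1.26 to 3.02 in contractile-low cells. Of 338 single-gene values, 255 stayed inside the interval of the value reported and 83 did not. Some intervals were wide because of few UMIs, as for Anxa7 in contractile-high barcodes (1.33 to 6.25, on 2 QSC UMIs). The tally pools the classes and so does not measure stability. Among contractile-low cells of cluster 1 in both libraries, with 18 in QSC, S100a6 was at 0.18 (-0.19 to 0.58). The cause of these shifts was not tested.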
